A study of Arabidopsis thaliana with 12 samples.

Results

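The 10 MYB transcription factor genes described here govern secondary wall formation. These genes, MYB46, MYB83, MYB103, MYB58, MYB63, MYB85, MYB20, MYB43, MYB52 and MYB54, were followed by their locus codes through 12 RNA-seq libraries of Arabidopsis thaliana. They are 10 of the 32833 loci in the count files, and 9 of them had enough counts to be tested, because MYB58 had none. Each library held poly-A RNA of the hypocotyl with the uppermost 5 mm of the root from plants 3 weeks old in long days, a tissue that thickens through its vascular cambium. The plants were the er erl2 mutant (er-105 erl2-1), the pxf mutant (pxy-3 pxl1-1 pxl2-1), the pxf er erl2 mutant, which carries all of these alleles, and Columbia-0 wild type, with 3 biological replicates of each. ER and ERL2 encode ERECTA-family receptor kinases, and PXY, PXL1 and PXL2 are related receptor kinases of which PXY acts in the cambium. Whether a replicate pooled several plants is not given in the sources used here, and p-values measure the spread between these libraries.

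Xylem vessels and fibres lay down a thick secondary wall of cellulose, xylan and lignin once they stop expanding. In Arabidopsis, NAC factors of the VND group in vessels and of the NST group (with SND1) in fibres switch the programme on. MYB46 and MYB83 act redundantly as the next tier, and the other MYB factors act below them, mainly on lignin genes in the case of MYB58, MYB63, MYB85, MYB20 and MYB43. In whole tissue, fewer cells of a type and less RNA per cell cannot be told apart, and this holds for each level below.

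The related genes MYB46 and MYB83, and MYB20 and MYB43, were called in opposite directions in pxf, so their promoters are shown. Each sequence is the 250 bases before the gene's RefSeq start in assembly TAIR10.1, read 5′ to 3′ on the gene's strand. Capitals mark matches on either strand to the secondary wall MYB-responsive element (SMRE, 7 letters that read ACC, then A or T, then A, then A or C, then C or T) or to the secondary wall NAC binding element (SNBE, a degenerate motif of 19 letters), and overlapping matches run together. MYB46 lies on the minus strand with its promoter at chr5:4065076-4065325, MYB83 on the minus strand at chr3:2578277-2578526, MYB20 on the plus strand at chr1:24676871-24677120 and MYB43 on the plus strand at chr5:5437915-5438164.
MYB46: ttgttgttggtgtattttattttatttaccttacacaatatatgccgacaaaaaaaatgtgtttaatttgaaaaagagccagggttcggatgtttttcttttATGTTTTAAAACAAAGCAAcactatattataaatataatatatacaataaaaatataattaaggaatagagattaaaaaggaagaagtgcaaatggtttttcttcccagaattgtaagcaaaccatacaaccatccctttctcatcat
MYB83: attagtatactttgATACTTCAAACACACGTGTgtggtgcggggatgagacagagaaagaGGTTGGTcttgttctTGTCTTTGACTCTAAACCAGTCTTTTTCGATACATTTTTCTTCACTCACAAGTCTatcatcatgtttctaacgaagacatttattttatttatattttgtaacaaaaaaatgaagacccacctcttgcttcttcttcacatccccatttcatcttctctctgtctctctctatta
MYB20: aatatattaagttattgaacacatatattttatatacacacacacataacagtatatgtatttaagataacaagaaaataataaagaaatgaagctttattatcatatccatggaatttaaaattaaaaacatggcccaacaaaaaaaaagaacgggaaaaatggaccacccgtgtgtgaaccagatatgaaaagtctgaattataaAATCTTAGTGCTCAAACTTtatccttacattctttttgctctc
MYB43: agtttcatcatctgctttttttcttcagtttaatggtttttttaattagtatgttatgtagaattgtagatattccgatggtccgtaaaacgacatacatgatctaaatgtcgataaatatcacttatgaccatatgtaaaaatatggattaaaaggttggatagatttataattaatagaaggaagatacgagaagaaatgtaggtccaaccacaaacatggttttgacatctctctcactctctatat
The MYB83 window held 1 SMRE match, which was the only SMRE among these 4 windows, and 5 SNBE matches, of which 2 are the same 19 bases read on both strands. MYB46 and MYB20 held 1 SNBE match each and MYB43 held none of either motif. Over the 10 genes, an SMRE match was present in 2 windows (20.0%), those of MYB83 and MYB52, against 29.4% of 27443 promoters of the same length. An SNBE match was present in 5 windows, those of MYB46, MYB83, MYB58, MYB20 and MYB54 (50.0%), against 42.6% of all. A match is a run of letters and not a measured binding site. MYB46 and MYB83 shared no exact stretch longer than 13 bases in these windows, and MYB20 and MYB43 none longer than 8. The promoters of MYB52 and MYB54, another related pair, shared a run of 25 bases, shown here because it is the longest run common to any of the 4 related pairs examined.
MYB52 and MYB54: ttggttagggaagacgttggcatca
It begins 28 bases before the start of MYB52 and 232 bases before that of MYB54.

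Total counts were 11307735 to 12260181 per library in er erl2, 12893975 to 14716123 in pxf, 12012325 to 13333413 in pxf er erl2 and 10507590 to 11823295 in wild type. Of the mutated genes, ER was below wild type where er-105 was present and PXY was below it where pxy-3 was present, but PXY was 3.39-fold higher in pxf er erl2 than in pxf (adjusted p 1.14e-07). PXL2 had 19 counts in pxf, 10 in pxf er erl2 and 31 in wild type. It was not called in pxf (log2 −1.01, adjusted p 0.184) and was lower in pxf er erl2 (−1.79, adjusted p 0.0283), a call lost without wild-type replicate 1 or pxf er erl2 replicate 2 or 3 (up to 0.113). PXL1 and ERL2 had too few counts to be tested, PXL1 with 37 in pxf, 14 in pxf er erl2 and 7 in wild type. Where these alleles disrupt the genes is not given in the sources used here, and counts from outside the disrupted part check nothing. Levels are in CPM, the counts of a locus relative to its library's total after TMM scaling, and differences were tested with edgeR's quasi-likelihood F-test over 19236 loci with Benjamini-Hochberg adjustment. A gene was called at an adjusted p under 0.05. The 3 comparisons with wild type share the same wild-type libraries. Single libraries stood apart: er erl2 replicate 3 lay below its genotype's mean for 9 of 9 MYB genes (median −0.27 on the log2 scale), wild-type replicate 1 lay above its mean for 8 of 9 (median 0.25) and wild-type replicate 2 above it for 2 of 9 (median −0.24). Over all loci, pxf er erl2 replicate 3 differed most from its fellow replicates, with a chi-square per degree of freedom of 14.5 and 15.3, against 2.9 between replicates 1 and 2. It had the lowest MYB20 and the highest MYB63 of its genotype. All 6 of 6 leaf photosynthesis markers (chlorophyll-binding proteins and Rubisco small subunits) were higher in each mutant line than in wild type, and none was at 0. Their summed level was 2040 to 2250 CPM in er erl2, 3200 to 4360 CPM in pxf, 3550 to 5770 CPM in pxf er erl2 and 784 to 1210 CPM in wild type. Whether tissue make-up has a part in the differences below was not tested.

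In er erl2, 3 of the 9 tested genes rose against wild type (MYB85, MYB20 and MYB43) and MYB63 fell, where 18.8% of all tested loci were called, 10.3% higher and 8.44% lower. The median difference of the 9 genes was 0.63 on the log2 scale, beside 0.02 over all tested loci. In pxf, 3 rose (MYB83, MYB20 and MYB54) and 3 fell (MYB46, MYB103 and MYB43), where 21.0% of loci were called, 13.0% higher and 7.97% lower, and the median was −0.18, beside 0.01 over all loci. In pxf er erl2, 2 rose (MYB83 and MYB20) and 3 fell (MYB103, MYB85 and MYB43), where 36.3% of loci were called, 19.9% higher and 16.4% lower, and the median was −0.06. MYB20 rose in all 3 mutant lines, and MYB43 rose in er erl2 and fell in the lines that carry pxf. The libraries of the mutant and of wild type did not overlap for 4 of 9 genes in er erl2 (37.8% of all loci), for 6 in pxf (40.4%) and for 5 in pxf er erl2 (46.9%).

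**Figure D1:**
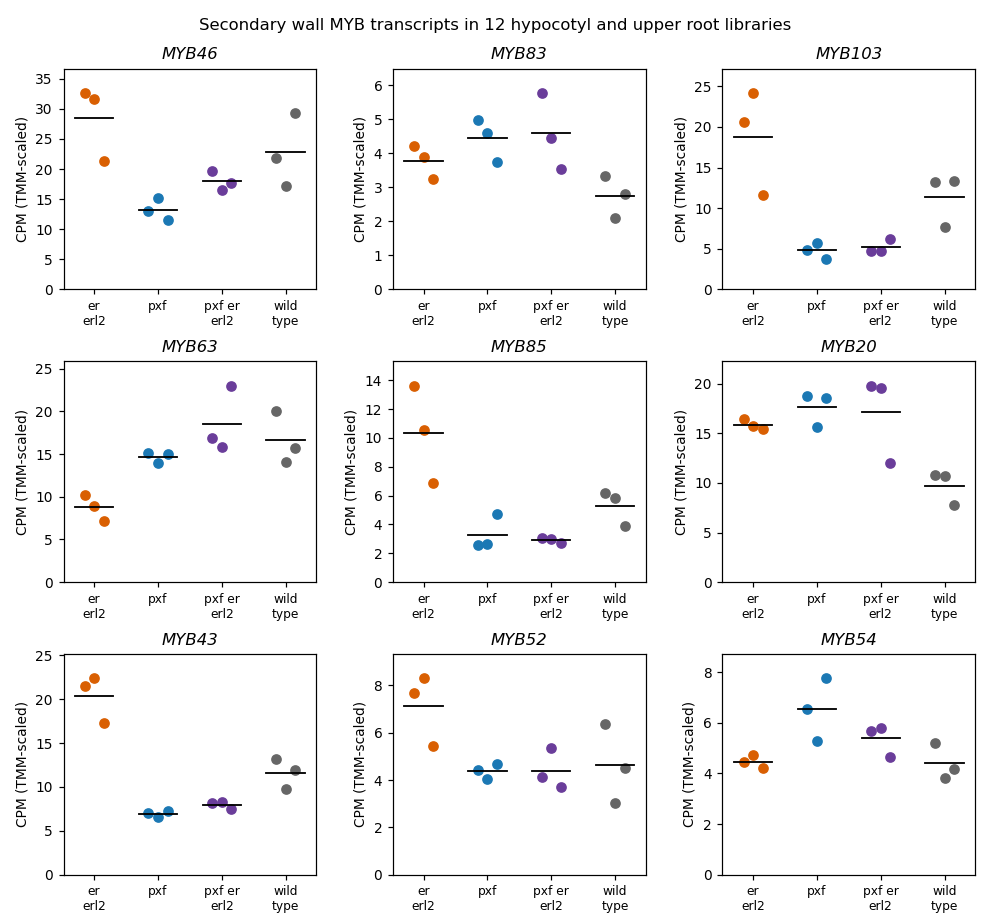
TMM-scaled CPM of the 9 tested MYB genes (vertical axes from 0, 1 panel per gene), with 1 point per library in replicate order and a bar at the mean of each genotype. MYB43 lies between 17.3 and 22.4 CPM in er erl2 and between 6.61 and 8.30 CPM in pxf and pxf er erl2, while the wild-type libraries lie between 9.76 and 13.2 CPM.

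**Figure D2:**
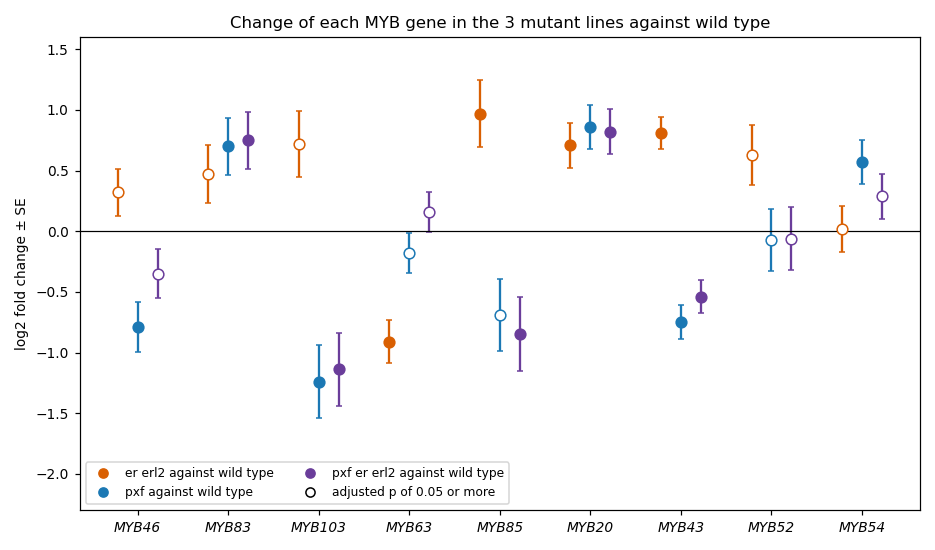
Log2 fold change (± SE, vertical axis) of each MYB gene in er erl2, pxf and pxf er erl2 against wild type, filled where the adjusted p is under 0.05. MYB20 is filled and above 0 in all 3 comparisons, and MYB43 is filled in all 3 with a change of sign between er erl2 (0.81) and the pxf lines (−0.75 and −0.54).

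MYB46 (AT5G12870, chr5:4062666-4065075, minus strand, 2 exons) is a direct target of the wall NAC factors and a master switch of the wall programme. It stood at 32.6, 31.6 and 21.3 CPM in the er erl2 libraries and at 13.0, 15.2 and 11.5 CPM in pxf. The pxf er erl2 libraries stood at 19.7, 16.4 and 17.7 CPM and those of wild type at 21.9, 17.2 and 29.3 CPM. The 3 pxf libraries lay below all 9 others, whereas er erl2 and pxf er erl2 both overlapped wild type. MYB46 fell by 0.79 on the log2 scale in pxf (SE 0.205, adjusted p 0.0194), and it differed from wild type by 0.32 in er erl2 (adjusted p 0.287) and by −0.35 in pxf er erl2 (0.202). The call in pxf did not survive the omission of wild-type replicate 3 (adjusted p 0.0725), pxf replicate 1 (0.0644) or pxf replicate 3 (0.0786).

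MYB83 (AT3G08500, chr3:2576444-2578276, minus strand, 2 exons) is the redundant partner of MYB46, and it differed from wild type in the opposite direction in pxf. Its libraries stood at 4.21, 3.90 and 3.25 CPM in er erl2 and at 4.99, 4.61 and 3.76 CPM in pxf. Levels were 5.77, 4.45 and 3.55 CPM in pxf er erl2 and 3.32, 2.1 and 2.8 CPM in wild type, from 23 to 74 counts per library. The pxf and pxf er erl2 libraries all lay above the wild-type ones, and 1 er erl2 library did not. MYB83 was 1.63-fold higher in pxf (log2 0.70, SE 0.233, adjusted p 0.0484) and 1.68-fold higher in pxf er erl2 (log2 0.75, SE 0.234, adjusted p 0.0241), with 0.47 in er erl2 (adjusted p 0.195). The pxf call is marginal and was lost in 14 of 19 alternative settings, among them scaling by size factors (adjusted p 0.0524) and DESeq2 (0.0618). The libraries whose omission ended it were wild-type replicate 2 (0.158) or 3 (0.1), er erl2 replicate 1 (0.0596), 2 (0.0622) or 3 (0.0585), pxf replicate 1 (0.145), 2 (0.0988) or 3 (0.0569) and pxf er erl2 replicate 2 (0.0614). The pxf er erl2 call was lost in a fit of those groups alone (0.0674) and without wild-type replicate 2 (0.0940) or 3 (0.0531) or pxf er erl2 replicate 1 (0.112) or 2 (0.0510).

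The balance between the partners was compared as the ratio of their counts within each library, which no scaling between libraries can move. MYB46 had 7.75, 8.10 and 6.57 counts per MYB83 count in er erl2, 2.61, 3.28 and 3.06 in pxf, 3.42, 3.69 and 4.98 in pxf er erl2 and 6.60, 8.22 and 10.5 in wild type. All 6 libraries that carry pxf lay below all 6 that do not. On the log2 scale the mean ratio differed from wild type by −1.48 in pxf and by −1.06 in pxf er erl2, each with an exact two-sided permutation p of 0.1 (0.15 after adjustment over 20 ratio tests), which is the smallest p that 3 libraries against 3 can give. In er erl2 the difference was −0.15 (exact permutation p 0.4). In pxf all MYB46 libraries lay below and all MYB83 libraries above wild type, so the ratios had to separate there. Their p in pxf therefore adds no support to the calls of the single genes.

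**Figure D3:**
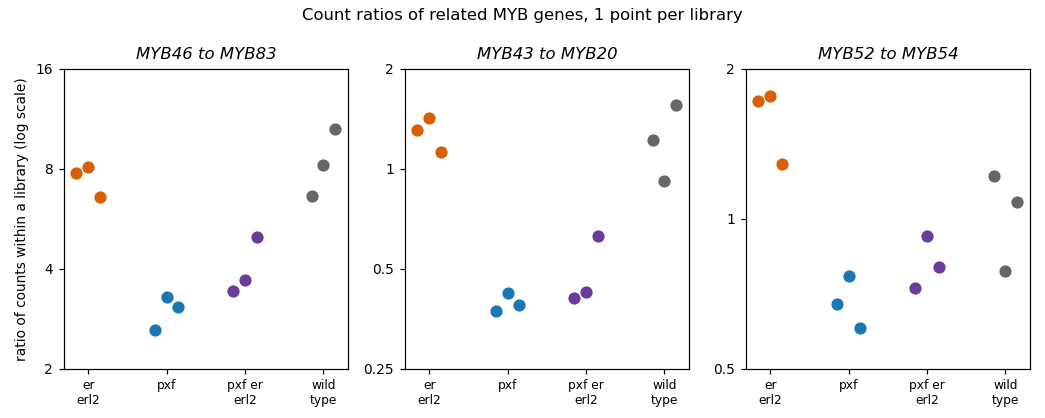
Ratio of the counts of 2 related MYB genes within a library (log2-spaced vertical axes, which differ between panels), 1 point per library in replicate order. For MYB46 to MYB83 and for MYB43 to MYB20 the pxf and pxf er erl2 points, at most 4.98 and 0.627, all lie below the er erl2 and wild-type points, which are at least 6.57 and 0.915.

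MYB103 (AT1G63910, chr1:23719783-23721774, minus strand, 3 exons) is needed in Arabidopsis stems for FAH1 expression and syringyl lignin. It stood at 20.6, 24.2 and 11.7 CPM in er erl2 and at 4.92, 5.78 and 3.76 CPM in pxf. For pxf er erl2 the values were 4.68, 4.75 and 6.17 CPM, and for wild type 13.3, 7.66 and 13.3 CPM. The 6 libraries that carry pxf were all lower than any other library, and er erl2 replicate 3 was within the wild-type range. MYB103 fell to 0.424 of wild type in pxf (log2 −1.24, SE 0.298, adjusted p 0.0131) and to 0.454 in pxf er erl2 (log2 −1.14, SE 0.299, adjusted p 0.0114), the largest falls among the 9 genes in both comparisons. In er erl2 it averaged 18.8 ± 6.42 CPM against 11.4 ± 3.26 CPM in wild type (SD, n = 3 each), a log2 difference of 0.72 with an adjusted p of 0.0878 in edgeR, which became 0.0165 (log2 0.94) without er erl2 replicate 3. The pxf call was lost without pxf replicate 3 (adjusted p 0.0569). FAH1 itself, the ferulate 5-hydroxylase of syringyl lignin, was higher than wild type in er erl2 (log2 1.82, adjusted p 0.000459), in pxf er erl2 (log2 1.37, adjusted p 0.00143) and also in pxf (log2 0.84, adjusted p 0.0355), where the call was lost in 7 of 19 alternatives. In both lines that carry pxf, FAH1 was higher and MYB103 lower than wild type, and the relation between them was not tested.

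MYB58 and MYB63 are close relatives that activate lignin genes directly in Arabidopsis. MYB63 (AT1G79180, chr1:29786257-29787820, plus strand, 3 exons) stood at 10.2, 8.95 and 7.20 CPM in er erl2 and at 15.1, 13.9 and 15.0 CPM in pxf. The pxf er erl2 libraries stood at 16.9, 15.8 and 23.0 CPM and those of wild type at 20.0, 14.1 and 15.7 CPM. The er erl2 libraries lay below all 9 others, and MYB63 was the only tested gene of the 10 to fall in er erl2, to 0.532 of wild type (log2 −0.91, SE 0.177, adjusted p 0.00335). The call held in all 19 alternative settings. Against wild type it differed by −0.18 in pxf (adjusted p 0.492), while the pxf er erl2 difference was 0.16 (0.479), or −0.01 (0.959) without pxf er erl2 replicate 3.

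MYB58 (AT1G16490, chr1:5629655-5631088, minus strand, 3 exons) was listed at 0 in all 12 libraries, and nothing about its transcription follows from that. All of its 1335 exon bases (100%) lie under an annotated antisense non-coding locus, AT1G16489, which had 16 counts over the 12 libraries. Among protein-coding loci with at least 95% of their exon bases shared with another locus, 434 of 465 (93.3%) were at 0 in every library, against 2868 of 19961 (14.4%) with no shared base. How reads over 2 loci were assigned is not given in the sources used here, and without strand the reads of a gene and its antisense partner cannot be told apart. None of the other 9 MYB genes shares exon bases with another locus.

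MYB85, MYB20 and MYB43 belong to a group that acts on lignin and on phenylalanine supply in Arabidopsis. MYB85 (AT4G22680, chr4:11922340-11924230, minus strand, 2 exons) stood at 13.6, 10.6 and 6.85 CPM in er erl2 and at 2.57, 2.62 and 4.69 CPM in pxf. Levels were 3.04, 3.02 and 2.71 CPM in pxf er erl2 and 6.16, 5.84 and 3.91 CPM in wild type. All er erl2 libraries were above and all pxf er erl2 libraries below the wild-type ones, and pxf replicate 3 was within their range. MYB85 was 1.96-fold higher in er erl2 (log2 0.97, SE 0.276, adjusted p 0.0275), fell by 0.85 on the log2 scale in pxf er erl2 (SE 0.305, adjusted p 0.0441) and differed by −0.69 in pxf (adjusted p 0.12), which became −1.02 (adjusted p 0.0460) without pxf replicate 3. The er erl2 call failed on omission of wild-type replicate 2 (adjusted p 0.0572) or 3 (0.0983) or er erl2 replicate 1 (0.117) or 2 (0.0706). The pxf er erl2 call failed on omission of wild-type replicate 1 (0.136) or 2 (0.12), er erl2 replicate 2 (0.0596) or pxf er erl2 replicate 1 (0.0948), 2 (0.0967) or 3 (0.0967).

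MYB20 (AT1G66230, chr1:24677121-24678580, plus strand, 2 exons) rose in every mutant line. Its libraries stood at 16.4, 15.8 and 15.4 CPM in er erl2 and at 18.7, 15.6 and 18.6 CPM in pxf. For pxf er erl2 the values were 19.8, 19.5 and 12 CPM, and for wild type 10.8, 10.7 and 7.73 CPM. All 9 mutant libraries lay above the 3 wild-type ones, pxf er erl2 replicate 3 being the nearest to them. MYB20 was 1.64-fold higher in er erl2 (log2 0.71, SE 0.185, adjusted p 0.0183), 1.82-fold higher in pxf (log2 0.86, SE 0.183, adjusted p 0.00585) and 1.77-fold higher in pxf er erl2 (log2 0.82, SE 0.184, adjusted p 0.00397). The calls in pxf and pxf er erl2 held in all 19 alternative settings, the pxf er erl2 difference being 1.03 without its replicate 3. The er erl2 call failed on omission of wild-type replicate 3 (adjusted p 0.0727) or er erl2 replicate 1 (0.0572), 2 (0.0502) or 3 (0.0519). Both the leaf photosynthesis markers and MYB20 were thus higher in all 3 mutant lines, and the part of leaf tissue was not tested.

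MYB43 (AT5G16600, chr5:5438165-5440433, plus strand, 3 exons) had no overlap of libraries between any pair of genotypes. It stood at 21.5, 22.4 and 17.3 CPM in er erl2 and at 6.98, 6.61 and 7.22 CPM in pxf. The pxf er erl2 libraries stood at 8.11, 8.30 and 7.53 CPM and those of wild type at 13.2, 9.76 and 12 CPM. The er erl2 libraries were highest, those of wild type next, then those of pxf er erl2 and then those of pxf. MYB43 was 1.75-fold higher in er erl2 (log2 0.81, SE 0.129, adjusted p 0.000836) and fell to 0.596 of wild type in pxf (log2 −0.75, SE 0.138, adjusted p 0.00248) and to 0.687 in pxf er erl2 (log2 −0.54, SE 0.137, adjusted p 0.00789). These 3 calls held in all 19 alternative settings.

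MYB43 and its relative MYB20 therefore moved together in er erl2 and apart in the lines that carry pxf. The count ratio of MYB43 to MYB20 was 1.31, 1.42 and 1.12 in er erl2, 0.373, 0.423 and 0.388 in pxf, 0.409, 0.425 and 0.627 in pxf er erl2 and 1.22, 0.915 and 1.55 in wild type. The ratios of pxf and pxf er erl2 lay below those of wild type with no overlap, by 1.61 and 1.33 on the log2 scale (differences of −1.61 and −1.33, exact permutation p 0.1 each, 0.15 adjusted, the smallest that this design allows). MYB43 lay below and MYB20 above wild type in every library of both lines. That separation was therefore fixed beforehand, and its p adds no support to the calls of the single genes. The er erl2 ratios overlapped wild type (0.09, exact permutation p 0.8). The ratio of MYB85 to MYB20 differed from wild type by −1.59 in pxf and −1.63 in pxf er erl2 (exact permutation p 0.1 each, 0.15 adjusted). The separation in pxf er erl2 was fixed in the same way, as all MYB85 libraries there lay below wild type. In er erl2 the ratio of MYB85 to MYB20 differed by 0.21 (exact permutation p 0.5).

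MYB52 and MYB54 affect wall thickening when they are repressed or overexpressed in Arabidopsis, and their exons share an exact stretch of 44 bases, the longest among the pairs of wall-related MYB genes compared. MYB52 (AT1G17950, chr1:6177481-6179289, plus strand, 3 exons) stood at 7.67, 8.30 and 5.44 CPM in er erl2 and at 4.42, 4.06 and 4.69 CPM in pxf. Levels were 4.13, 5.35 and 3.72 CPM in pxf er erl2 and 6.35, 3.01 and 4.50 CPM in wild type. The wild-type libraries spanned the whole range of pxf and of pxf er erl2, and no difference from wild type passed the threshold (log2 0.63, −0.07 and −0.06 in er erl2, pxf and pxf er erl2, adjusted p 0.0964, 0.868 and 0.869). Without wild-type replicate 1 the er erl2 difference became 0.92 (adjusted p 0.0312).

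MYB54 (AT1G73410, chr1:27601593-27603317, plus strand, 3 exons) stood at 4.46, 4.72 and 4.21 CPM in er erl2 and at 6.56, 5.30 and 7.76 CPM in pxf. For pxf er erl2 the values were 5.69, 5.81 and 4.65 CPM, and for wild type 5.21, 3.83 and 4.16 CPM. The pxf libraries all lay above wild type, the lowest of them narrowly, and the other mutant lines overlapped it. MYB54 was 1.48-fold higher in pxf (log2 0.57, SE 0.182, adjusted p 0.0427), and differed by 0.02 in er erl2 (adjusted p 0.948) and by 0.29 in pxf er erl2 (adjusted p 0.239). The pxf call was lost in 13 of 19 alternatives, among them DESeq2 (adjusted p 0.0639) and no filter (0.0627). The libraries whose omission ended it were wild-type replicate 2 (0.131) or 3 (0.116), er erl2 replicate 1 (0.0550), 2 (0.0526) or 3 (0.0568), pxf replicate 1 (0.0968) or 3 (0.163) and pxf er erl2 replicate 1 (0.0527) or 2 (0.0510). The count ratio of MYB52 to MYB54 was 1.72, 1.76 and 1.29 in er erl2, 0.674, 0.766 and 0.604 in pxf, 0.726, 0.922 and 0.800 in pxf er erl2 and 1.22, 0.786 and 1.08 in wild type. It lay above wild type in all er erl2 libraries (log2 difference 0.64) and below it in all pxf libraries (−0.58), each with the smallest possible exact permutation p of 0.1, and it overlapped wild type in pxf er erl2 (−0.32, exact permutation p 0.3).

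Levels of different genes were compared as CPM per kb of exon. In wild type MYB46 was highest, at 18.2 CPM per kb, and its libraries did not overlap those of MYB63 (11.3), the next in order. MYB63, MYB43 (8.76), MYB103 (7.89) and MYB20 (7.03) followed with neighbours overlapping, then MYB85 (3.79), MYB52 (3.67) and MYB54 (2.73), again overlapping, and MYB83 was lowest at 1.57 CPM per kb with no overlap with MYB54. In er erl2 the order by level was MYB46 (22.8), MYB43 (15.3), MYB103 (13.0), MYB20 (11.5), MYB85 (7.39), MYB63 (5.99), MYB52 (5.67), MYB54 (2.76) and MYB83 (2.16 CPM per kb). There MYB43, MYB103 and MYB20 overlapped as neighbours, as did MYB85, MYB63 and MYB52. In pxf, MYB20 (12.8) and MYB46 (10.6 CPM per kb) led and overlapped, MYB63 overlapped MYB46 at 9.48 to 10.3 CPM per kb over its libraries, and MYB85 was lowest at 2.35, overlapping MYB83 (2.55). In pxf er erl2 the leading levels were MYB46 (14.3), MYB63 (12.7) and MYB20 (12.4 CPM per kb), each overlapping the next, and MYB85 was again lowest, at 2.09.

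The pxf er erl2 line was also compared with each parent line. Against er erl2, 6 of 9 genes were called, where 34.3% of loci were, 18.0% higher and 16.2% lower, and the libraries did not overlap for the same 6 genes, beside 46.2% of loci. MYB63 rose 2.1-fold (log2 1.07, SE 0.174, adjusted p 0.000458). MYB103 fell by 1.86 (SE 0.290, adjusted p 0.000496), MYB85 by 1.82 (SE 0.290, adjusted p 0.000404) and MYB43 by 1.35 (SE 0.132, adjusted p 9.58e-06) on the log2 scale, and these 4 calls held in all 19 alternatives. MYB46 (log2 −0.67, adjusted p 0.0218) and MYB52 (−0.69, adjusted p 0.0448) were lower too. The MYB46 call was lost without er erl2 replicate 1 (0.0859) or 2 (0.0797) or pxf er erl2 replicate 2 (0.0778) or 3 (0.0561). That of MYB52 was lost in 9 of 19 alternatives, without wild-type replicate 3 (0.0538), er erl2 replicate 1 (0.122) or 2 (0.154), pxf replicate 1 (0.0601), 2 (0.0557) or 3 (0.0565) or pxf er erl2 replicate 1 (0.118) or 3 (0.114) and with a replicate block (0.0615).

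Against pxf, none of the 9 genes was called by edgeR and none by DESeq2, where edgeR called 10.5% of loci, 5.07% higher and 5.41% lower, and none had an unadjusted p under 0.05. The log2 differences of pxf er erl2 over pxf ran between −0.28 (MYB54, adjusted p 0.367) and 0.44 (MYB46, SE 0.207, adjusted p 0.215), with a median of 0.04. MYB46, MYB63 (0.34, adjusted p 0.225) and MYB43 (0.20, adjusted p 0.406) had all 3 pxf er erl2 libraries above the 3 pxf libraries, as 3 of 9 genes where 29.3% of all loci did not overlap. A p that misses the threshold does not show that the 2 lines have equal levels.

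Whether the er erl2 alleles act differently in pxf plants than in wild-type plants was tested as an interaction, the log2 difference of pxf er erl2 over pxf minus that of er erl2 over wild type. Of the 9 genes, 1 passed, with a positive value, where 9.45% of loci did, 4.65% with a positive and 4.80% with a negative value. MYB63 was 0.34 higher in pxf er erl2 than in pxf and 0.91 lower in er erl2 than in wild type on the log2 scale, so the interaction was 1.25 (SE 0.242, adjusted p 0.00675), and it held in all 18 alternatives. For MYB43 the interaction was −0.61 (SE 0.191, adjusted p 0.0653), for MYB20 −0.75 (SE 0.253, adjusted p 0.0833) and for MYB85 −1.13 (SE 0.417, adjusted p 0.109). That of MYB43 became −0.68 (adjusted p 0.0461) without er erl2 replicate 3.

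Over the 12 libraries, the pattern of log2 CPM was most alike between MYB103 and MYB43 (Pearson r 0.94, and 0.68 for deviations from the genotype means), then between MYB46 and MYB103 (0.91 and 0.84) and between MYB85 and MYB43 (0.91 and 0.44). The median r over the 36 pairs was −0.04. The redundant partners MYB46 and MYB83 had r −0.18 over all libraries and 0.61 within genotypes, MYB20 and MYB43 had −0.18 and 0.21, and MYB52 and MYB54 had 0.01 and 0.74. The points share depth and genotype, and r describes these libraries. Among 18354 genes of at least 1 CPM, the nearest to MYB46 was UXS3, a UDP-xylose synthase (r 0.969), the nearest to MYB103 was IRX14, a xylan glycosyltransferase (0.984), and the nearest to MYB83 was VND1, a vessel NAC factor (0.928). MYB43 was nearest to LBD11, a LOB-domain factor (0.986), MYB85 to PIP2;4, an aquaporin (0.962), MYB63 to INV-E, an invertase (0.945), MYB52 to PAT2 (0.926), MYB20 to AT4G12917 (0.984) and MYB54 to AT3G25855 (0.941). Many genes were close to some MYB genes: 197 had r over 0.9 to MYB43, 172 to MYB103 and 151 to MYB20, against 2 to 64 for the others. VND1 had a rank correlation of 0.769 with MYB83, where the highest was 0.923. By rank correlation UXS3 was 1 of 3 genes tied as nearest to MYB46, and for the other 8 MYB genes a different gene was nearest, which was PXY for MYB43. PXY is itself mutated in both lines that carry pxf, so its pattern includes the mutation. It averaged 349 CPM in er erl2, 22.9 CPM in pxf, 77.3 CPM in pxf er erl2 and 249 CPM in wild type.

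For the gene lists that follow, the counts called against wild type stand beside 10.3% of all loci higher and 8.44% lower in er erl2, 13.0% and 7.97% in pxf and 19.9% and 16.4% in pxf er erl2. Of 10 NAC factors above the MYB tier, 4 rose and 3 fell in both lines that carry pxf. NST1, NST2 and SND1 (listed as NAC012), the fibre-type factors, were those that fell. NST1 averaged 26.4 ± 8.72 CPM in er erl2, 1.95 ± 0.824 CPM in pxf, 2.41 ± 1.11 CPM in pxf er erl2 and 24.5 ± 4.19 CPM in wild type (SD, n = 3 each), log2 −3.64 in pxf (adjusted p 0.000111) and −3.36 in pxf er erl2 (4.87e-05) in edgeR. SND1 differed by −3.70 in pxf (adjusted p 0.00273) and −2.09 in pxf er erl2 (0.0119, but 0.0524 without pxf er erl2 replicate 2), and NST2 by −2.18 (0.00418) and −3.40 (0.000287). The 4 NAC factors that rose in both lines were VND1, VND3, VND6 and VND7 of the vessel group, named after their values were seen, with log2 differences of 0.60 to 0.88 in pxf and, in pxf er erl2, of 0.81 to 1.04. The other VND genes, VND2 (0.21 and 0.08), VND4 (−0.11 and −0.10) and VND5 (0.44 and −0.10), were not called in either line. VND5 was lower in pxf er erl2 than in pxf (log2 −0.54, adjusted p 0.0491), a call lost in 16 of 19 alternatives. The VND3 call held in both lines in all 19 alternatives, as did those of VND6 and VND7 in pxf er erl2. In pxf, the call of VND1 was lost in 13 of 19 (adjusted p up to 0.161), that of VND6 on omission of wild-type replicate 1, wild-type replicate 3, pxf replicate 2 or pxf replicate 3 (up to 0.0984) and that of VND7 on omission of pxf replicate 3 (0.0559). In pxf er erl2, VND1 was no longer called on omission of pxf er erl2 replicate 1 or wild-type replicate 2 or in a fit of those groups alone (up to 0.0822). In er erl2, 1 of the 10 rose, a share near that of all loci. It was VND5 (log2 0.59, adjusted p 0.0244), a call lost on omission of replicate 1 or 3 of er erl2 or of wild type (adjusted p up to 0.115). In pxf, MYB46, MYB103 and MYB43 were lower, as was the NST group, and MYB83, MYB20 and MYB54 were higher, as were these VND genes. The pxf calls of MYB83 and MYB54 were marginal, lost in 14 and 13 of 19 alternatives. Those of MYB46 and MYB103 were lost in 3 and 1, and those of MYB20 and MYB43 held in all. MYB20 and MYB43 both rose in er erl2. There NST1, NST2, SND1, VND1, VND3, VND6 and VND7 were not called, but all 10 NAC factors had differences above 0. The largest was that of SND1, 1.12 on the log2 scale (adjusted p 0.108 in edgeR), with libraries that overlapped wild type. No relation between the MYB genes and the NAC factors was tested.

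Among 10 tested other wall-related MYB genes, 4 fell and 1 rose in pxf, and 5 fell and 1 rose in pxf er erl2, with 2 lower in er erl2. MYB26, which acts on wall thickening in anthers, had 3 counts in er erl2, 2 in pxf, 2 in pxf er erl2 and 51 in wild type and fell in all 3 mutant lines (adjusted p 0.0036, 0.00189 and 0.00104). The ratio of its counts per library size to wild type was 0.0547 in er erl2 (exact 95% interval 0.0109 to 0.169), 0.0314 in pxf (0.0037 to 0.119) and 0.0344 in pxf er erl2 (0.00406 to 0.131), intervals that cover counting error only. MYB55 fell by 3.90 on the log2 scale in pxf (adjusted p 1.78e-05) and by 2.89 in pxf er erl2 (1.45e-05), and MYB86 fell by 3.06 (5.33e-05) and 2.73 (2.82e-05). MYB55 and MYB86 fell by more than MYB103, whose fall was the largest among the 10 genes described here. MYB42, the close relative of MYB85, had 2 to 29 counts per genotype and was not tested. Of 12 other wall regulators, 5 rose in er erl2, among them SND2 (log2 0.68, adjusted p 0.00650). In pxf 1 of the 12 fell and 0 rose, and in pxf er erl2 1 fell and 1 rose, beside the shares of all loci given above. WRKY12, a repressor of wall formation in pith, was the 1 that fell, by 1.33 in pxf (adjusted p 0.000199) and by 2.37 in pxf er erl2 (1.62e-06). In er erl2 it was among the 5 that rose (log2 0.52, adjusted p 0.0327), with libraries that overlapped wild type.

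Among the genes that build the wall, of 15 cellulose and xylan genes, 8 rose in er erl2, 10 fell in pxf and 11 fell in pxf er erl2, with median log2 differences of 0.63, −0.64 and −0.60, and with none called in the other direction in these 3 lines. Of the 8 that rose in er erl2, only FLA11, FLA12 and GAUT12, named after their values were seen, had all libraries above wild type. The call of PARVUS in er erl2 was lost in 13 of 19 alternatives (adjusted p up to 0.177). All 15 were called lower in pxf er erl2 than in er erl2 (median −1.17), where 16.2% of all loci were. None was called between pxf er erl2 and pxf, where 10.5% of all loci were. GAUT12, a glycosyltransferase needed for xylan, rose by log2 0.92 in er erl2 (adjusted p 0.00190), and IRX15, needed for normal xylan, fell by 1.04 in pxf (0.00814) and by 1.16 in pxf er erl2 (0.00236). The summed level of the 15 genes was 1890 to 3590 CPM in er erl2, 1160 to 1290 CPM in pxf, 1250 to 1310 CPM in pxf er erl2 and 1720 to 2180 CPM in wild type.

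Lignin genes, the main targets assigned to MYB58, MYB63, MYB85, MYB20 and MYB43, were called in both directions. Of 21 tested, 6 rose and 1 fell in er erl2, 2 rose and 3 fell in pxf, and 6 rose and none fell in pxf er erl2, with medians of 0.14, −0.09 and 0.04. PAL4, a phenylalanine ammonia-lyase, rose in er erl2 (log2 1.88, adjusted p 7.83e-05). It also rose in pxf er erl2 (1.41, adjusted p 0.000332). PRX52, a peroxidase of lignin formation, fell by 1.58 in pxf (adjusted p 0.0485), a call lost in 11 of 19 alternatives (up to 0.147). CAD4, a cinnamyl alcohol dehydrogenase, rose by log2 0.62 in pxf (adjusted p 0.00228) and was also higher in pxf er erl2 (0.83, adjusted p 0.000114). ADT4, an arogenate dehydratase of phenylalanine synthesis picked here after its value was seen, stood at 154 ± 6.89 CPM in er erl2. In wild type it stood at 317 ± 25.5 CPM (SD, n = 3 each, log2 −1.04, adjusted p 6.01e-05 in edgeR). Its relative ADT5, named for not being called, differed by −0.43 (adjusted p 0.0979). ADT6 had 0 counts over the 12 libraries and was not tested. As for MYB58, nothing about its transcription follows from that, because 95.7% of its exon bases lie under another locus, AT1G08260. No relation between these genes and the MYB genes was tested.

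**Figure D4:**
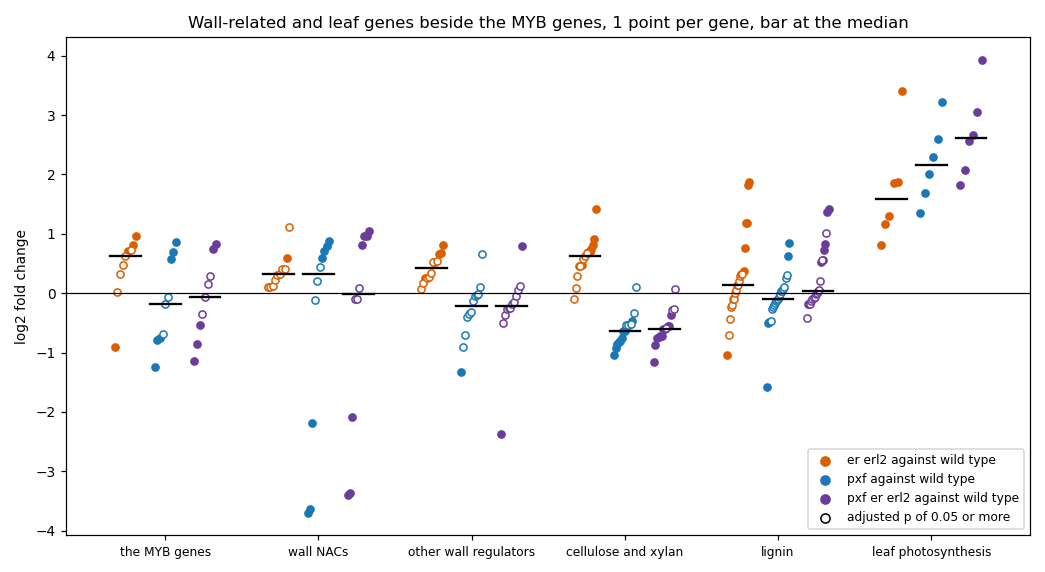
Log2 fold change against wild type (vertical axis) of each tested gene of the MYB set and of 5 other lists, 1 point per gene, filled at an adjusted p under 0.05, with a bar at the list's median. The cellulose and xylan genes have medians of 0.63, −0.64 and −0.60 in the order of the legend, and the leaf photosynthesis markers lie above 0 in all 3 lines.

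Markers of other tissues moved as well. Of 5 phloem markers, 2 rose in er erl2, 4 rose and 1 fell in pxf and 4 rose in pxf er erl2, and their summed level was 417 to 533 CPM in er erl2, 581 to 714 CPM in pxf, 650 to 924 CPM in pxf er erl2 and 356 to 371 CPM in wild type. Of 5 periderm markers, 1, 4 and 5 rose in the same order of lines, with sums of 138 to 180, 227 to 332, 192 to 282 and, in wild type, 128 to 137 CPM. Cambium markers (3 of 5 rose and 1 fell in er erl2, 2 rose in pxf, 3 rose and 1 fell in pxf er erl2) had sums of 452 to 477, 432 to 453, 434 to 465 and, in wild type, 355 to 408 CPM. Of 5 xylem cell death genes, none was called in er erl2 or pxf. XCP1 was called higher in pxf er erl2 (log2 0.30, adjusted p 0.0481) with libraries that overlapped wild type, a call lost in 14 of 19 alternatives (up to 0.16). The 5 genes had sums of 513 to 598, 460 to 593, 471 to 493 and, in wild type, 387 to 562 CPM. Only 3 of 6 endodermis markers had enough counts to be tested, and none of these was called in er erl2. PER64 was lower in pxf (log2 −5.35, adjusted p 0.000351) and pxf er erl2 (log2 −3.70, adjusted p 0.000572). MYB36 was higher in both (1.27, adjusted p 0.000315, and 1.5, adjusted p 2.84e-05), and ESB1 was not called (−0.20 and −0.01). The part of these tissues in the MYB differences was not tested.

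The distance of each MYB gene to the mutated genes, and the genes next to it, were examined as well. MYB46 lies 1829 kb and MYB43 3205 kb from ERL2, MYB85 lies 2220 kb from PXL2, and MYB58 and MYB52 lie 2907 kb and 3455 kb from PXL1, all other distances being at least 19284 kb. Among the 20 tested genes nearest to MYB54, 8 were called in er erl2 against wild type, where 18.8% of all loci were, and 3 of these differed over 8-fold, beside 1.12% of all loci. Between pxf er erl2 and er erl2, 11 were called, where 34.3% of all loci were, and 4 of these differed over 8-fold, beside 1.26% of all loci. MYB54 itself differed by 0.02 and 0.27 in those comparisons. For the other 8 tested MYB genes, at most 1 of 20 neighbours differed over 8-fold in any comparison.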

How the data were processed

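The authors deposited raw counts per locus, 1 file per library. The submitters' processing notes name HISAT2 2.0.5, featureCounts 1.5.0-p3 and TAIR10; strand handling and the treatment of reads over 2 loci are not given in the sources used here. The library kit does not mark strand, per the labels' protocols. Coordinates, exon lengths and promoters come from RefSeq's TAIR10.1 annotation by locus code.

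Counts were analysed in R 4.3.3 with edgeR 4.0.16: filterByExpr left 19236 of 32833 loci (99.9% of counts), followed by TMM scaling and a robust quasi-likelihood fit with a term per genotype over all 12 libraries (biological coefficient of variation 11.6%). The 5 contrasts between genotypes and their interaction were tested, with Benjamini-Hochberg adjustment over all tested loci. Scripts were tested on simulated data. The ratios of related genes were tested with an exact permutation test and were added after the data had been seen. Likeness is Pearson's r of log2 CPM (prior count 2).

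The MYB genes and the 12 other lists were chosen with earlier results of these data known, and list members were written from general knowledge. Every MYB gene is described; of each other list, genes named are among the 3 called members with the largest change in a comparison, or are said to be named after their values were seen or for not being called. Alternatives were size-factor scaling, library totals, no filter, DESeq2 1.42.0, the compared groups alone, a replicate block, a non-robust fit and each library left out.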

Additional observations from a re-analysis of the deposited data

Results flagged for a closer look

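For 9 of the genes named above, the interaction was called in edgeR, as it was for 9.45% of all tested loci. It is the log2 difference of pxf er erl2 over pxf minus that of er erl2 over wild type. By list, it was called for 1 of 9 tested MYB genes, 1 of 10 NAC factors and 1 of 12 other wall regulators. The calls were 0 of 10 among other wall-related MYB genes and 1 of 15 among cellulose and xylan genes. Of 21 lignin genes, 2 were called above 0 and 2 below it. Whether any list exceeds the share of all loci was not tested. MYB63 had an interaction of 1.25 (adjusted p 0.00675), from 0.34 in pxf er erl2 against pxf and −0.91 in er erl2 against wild type, and it was the only MYB gene so marked. Of the NAC factors and other regulators, VND5 had −1.13 (adjusted p 0.00891) and WRKY12 had −1.56 (adjusted p 0.00192), and both calls held in all 18 alternatives. Of the wall-building genes, GAUT12 had −0.94 (adjusted p 0.0237), lost in 6 of 18 alternatives (adjusted p up to 0.0568), FAH1 had −1.29 (adjusted p 0.0364), lost in 11 (up to 0.0861), and PRX52 had 2.84 (adjusted p 0.0291), also lost in 11 (up to 0.0745). ADT4 had 1.09 (adjusted p 0.00136), which held in all 18. Of the mutated genes themselves, PXY had 1.27 (adjusted p 1.48e-05), which held in all 18, and ER had −0.74 (adjusted p 0.0433), lost in 11 (up to 0.129). Both values include transcripts of mutated loci, so they cannot show how the er erl2 alleles act in either background. ER averaged 9.57 CPM in er erl2 and 9.33 CPM in pxf er erl2, against 62.5 CPM in pxf and 38.3 CPM in wild type. Groups of 3 libraries are too small for a test of single outlying libraries.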

How the results depend on the processing

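Of 1017 values of the MYB genes under the alternatives, 929 kept direction and side of the threshold, 64 lost a call, 4 gained a call and 20 changed sign. All 20 sign changes were in differences that were not called and came from leaving out 1 library, over which the ranges were −0.11 to 0.28 for MYB46 in the interaction, −0.01 to 0.32 for MYB63 in pxf er erl2 against wild type, 0 to 0.32 for MYB20 in pxf er erl2 against er erl2, −0.30 to 0.22 for MYB52 in pxf, −0.29 to 0.23 for MYB52 in pxf er erl2 and −0.07 to 0.16 for MYB54 in er erl2. In pxf er erl2 against pxf they were −0.15 to 0.20 for MYB83, −0.04 to 0.25 for MYB103, −0.31 to 0.18 for MYB85, −0.16 to 0.16 for MYB20 and −0.16 to 0.12 for MYB52, and the cause was not tested. Leaving out each library in turn, 2 to 5 MYB genes were called in er erl2, 3 to 6 in pxf, 3 to 5 in pxf er erl2, 0 in pxf er erl2 against pxf, 4 to 6 against er erl2 and 1 to 2 in the interaction. Over all loci the calls ran between 2578 and 4270, 2497 and 4729, 5332 and 7465, 1192 and 2244, 5283 and 6693, and 1119 and 1747 in the same order, and fewer libraries enter those fits. Scaling, filter, tool, groups fitted and robustness moved no count of calls by over 1.5 times. Replicate numbers did not pair libraries across all genotypes (correlation of same-number deviations −0.37 to 0.27, over 0.1 in 5 of 18). Between wild type and pxf er erl2 the correlations were 0.14, 0.11 and 0.27 for replicates 1, 2 and 3, and pairing was not tested. With the replicate block MYB85 in pxf er erl2 had an adjusted p of 0.0623, MYB54 in pxf 0.0624 and MYB52 against er erl2 0.0615, the other MYB calls being kept. The log2 ratio difference stayed below 0 for MYB46 to MYB83 and MYB43 to MYB20 in pxf (−1.64 to −1.31 and −1.80 to −1.42) and pxf er erl2 (−1.22 to −0.89 and −1.52 to −1.14), and crossed 0 in er erl2 (−0.32 to 0.02 and −0.11 to 0.27). Depth limits MYB83, MYB52 and MYB54 most among the tested MYB genes, with 588, 760 and 781 counts over the 12 libraries.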
